A study of Drosophila melanogaster with 16 samples.

Results

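The genes described here encode nucleolar proteins and other ribosome biogenesis factors of *Drosophila melanogaster*. The list holds 35 genes, chosen by name but with earlier results of these data known. Shares of the members set against all genes below are therefore descriptions and not independent support. Of the 35, 31 had a probe set of their own among the 11982 genes that the array named in this way. No probe set was named for *nop5*, *U3-55K* or *Nmd3*, and *hoip* was named only on a probe set shared with another gene, so these 4 members have no value here. Each measured gene was read from its brightest probe set, the one with the highest mean over all arrays. The measurements came from whole larvae hybridized to 16 Affymetrix Drosophila Genome 2.0 arrays, 1 array per pool of 10 larvae.

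The study asked which genes differ constitutively between a stock sensitive to the mushroom toxin α-amanitin and a resistant stock, and which respond to the toxin. α-Amanitin binds RNA polymerase II and blocks the transcription of messenger RNA. Canton-S, the sensitive laboratory wild type, was raised without toxin (5 pools). The resistant stock Ama-KTT/M/2 was raised without toxin (5 pools, called untreated below) or from the first instar on food containing α-amanitin (6 pools, called toxin-fed). The methods give the dose as 1.5 μg per g of food, whereas the sample labels give 1.5 mg per g. The labels call it the median lethal concentration for Ama-KTT/M/2, and the methods place it slightly below. Not all larvae survived, so the pools hold survivors, and survival and response to the toxin cannot be told apart. Ama-KTT/M/2 was derived from the Taiwanese stock Ama-KTT and is isogenic for chromosomes 2 and 3, while its X chromosome was not controlled. It is a single derived stock, so stock and resistance cannot be told apart in any comparison with Canton-S. All larvae were kept at 25°C and taken late in the third instar while still feeding, but the larvae on toxin grew more slowly. No toxin-fed Canton-S group was analysed here.

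Ribosome biogenesis starts in the nucleolus, where RNA polymerase I transcribes the ribosomal RNA precursor. Small nucleolar ribonucleoproteins (snoRNPs) methylate and pseudouridylate this RNA, processing factors and nucleases trim it, and assembly factors and GTPases build and export the small and the large subunit. In larvae, growth proceeds largely through tissues with endoreplicating cells, such as the salivary gland, the fat body and the gut, in which the nucleolus is large while the tissue grows.

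All values are linear array intensities as deposited. Fold changes of the main fit are on the log2(intensity + 16) scale, which understates changes of dim genes. A gene was called when it differed at least 2-fold with an adjusted p under 0.05 (limma, Benjamini-Hochberg over 18769 probe sets). The 3 comparisons share their groups pairwise, so they are not independent of each other. The p-values reflect only how far pools of one group scatter. In RNA of whole larvae, fewer cells of a type and less RNA per cell cannot be told apart.

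Markers of larval age moved with the groups and have to be read beside every result below. The salivary glue genes (*Sgs1*, *Sgs3*, *Sgs4*, *Sgs5*, *Sgs7*, *Sgs8* and *Eig71Ee*), whose expression begins during the third instar, had a summed intensity of 6.05 to 14.5 in the 5 untreated Ama-KTT/M/2 pools, where all 7 genes were under 16 in every pool. The same sum was 11746 to 28924 in 4 Canton-S pools and 1765 in Canton-S replicate 4. On α-amanitin it was 33689 to 56653 in 5 pools and 11.7 in replicate 2. The larger glue list of 11 genes, which adds the pre-glue genes *ng1* to *ng4*, summed to 12547 to 16107 in untreated Ama-KTT/M/2, 12284 to 37457 in Canton-S and 16422 to 64359 on toxin. The fat body storage genes *Lsp2*, *Fbp1* and *Fbp2* summed to 11.9 to 1221 in untreated Ama-KTT/M/2 (highest in replicate 5), 12727 to 28777 in Canton-S and 2795 to 31575 on toxin (lowest in replicate 2). The pools with glue RNA were thus Canton-S and 5 of the 6 toxin pools, and the part of larval age in the results was not tested. Genes of other larval tissues also differed between the groups, and their part in the results was not tested. The midgut protease genes were bright, with mean intensities in Canton-S, untreated and toxin-fed Ama-KTT/M/2 of 12307, 12638 and 9559 for *betaTry*, 6363, 6161 and 4036 for *Jon65Ai*, and 7092, 4746 and 5412 for *alphaTry*. On toxin *betaTry* was 1.32-fold lower (adjusted p = 5.17e-05, limma) and *Jon65Ai* 1.53-fold lower (adjusted p = 2.71e-06, limma), while *alphaTry* was 1.48-fold lower in untreated Ama-KTT/M/2 than in the sensitive stock (adjusted p = 0.00413, limma). The muscle troponin gene *up*, the only one of 3 muscle genes with a value, was at 5167, 4239 and 5086. The germline genes were dim. *vas* was at 14.5, 14.2 and 16.6 and passed no test. *nanos* was at 25.97, 42.08 and 19.93, and like the biogenesis genes it was higher between the stocks (log2 0.46, adjusted p = 0.00705, limma) and lower on toxin (log2 -0.69, adjusted p = 0.000418, limma). *bam* was at 21.9, 26.1 and 51.5 and was higher on toxin (log2 0.65, adjusted p = 0.0138, limma).

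Without toxin, the biogenesis genes of Ama-KTT/M/2 were almost throughout above those of Canton-S. Of the 31 measured members, 20 were called higher, against 4.26% of all genes, none was called lower, against 2.85%, and 11 were not called. All 31 log2 fold changes were positive, so no member was lower at any p. With the adjusted p alone, 30 members were higher, against 28.7% of all genes, and *Non1* was the exception. In the same 30 genes every Ama-KTT/M/2 pool lay above every Canton-S pool, which was so for 22.9% of all genes. The median log2 fold change of the members was 1.09, beside 0.02 over all genes, and it ranged from 0.20 (*Non1*) to 1.66 (*Surf6*). Under every alternative setting 12 of the 20 calls held, those of *Fib*, *Nop56*, *NHP2*, *Nopp140*, *bys*, *mbm*, *Surf6*, *Mys45A*, *pit*, *Ns1*, *mod* and *nclb*. The other 8 were each lost under at least 1 alternative. In turn, *RIOK1*, *RIOK2*, *Nle* and *Ns3*, which were not called, were called with an added constant of 1 and with the rank product. The rank product counted every ratio between pools as independent, so its p-values are too small. Its fold change was the ratio of the group means without an added constant.

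**Figure D1:**
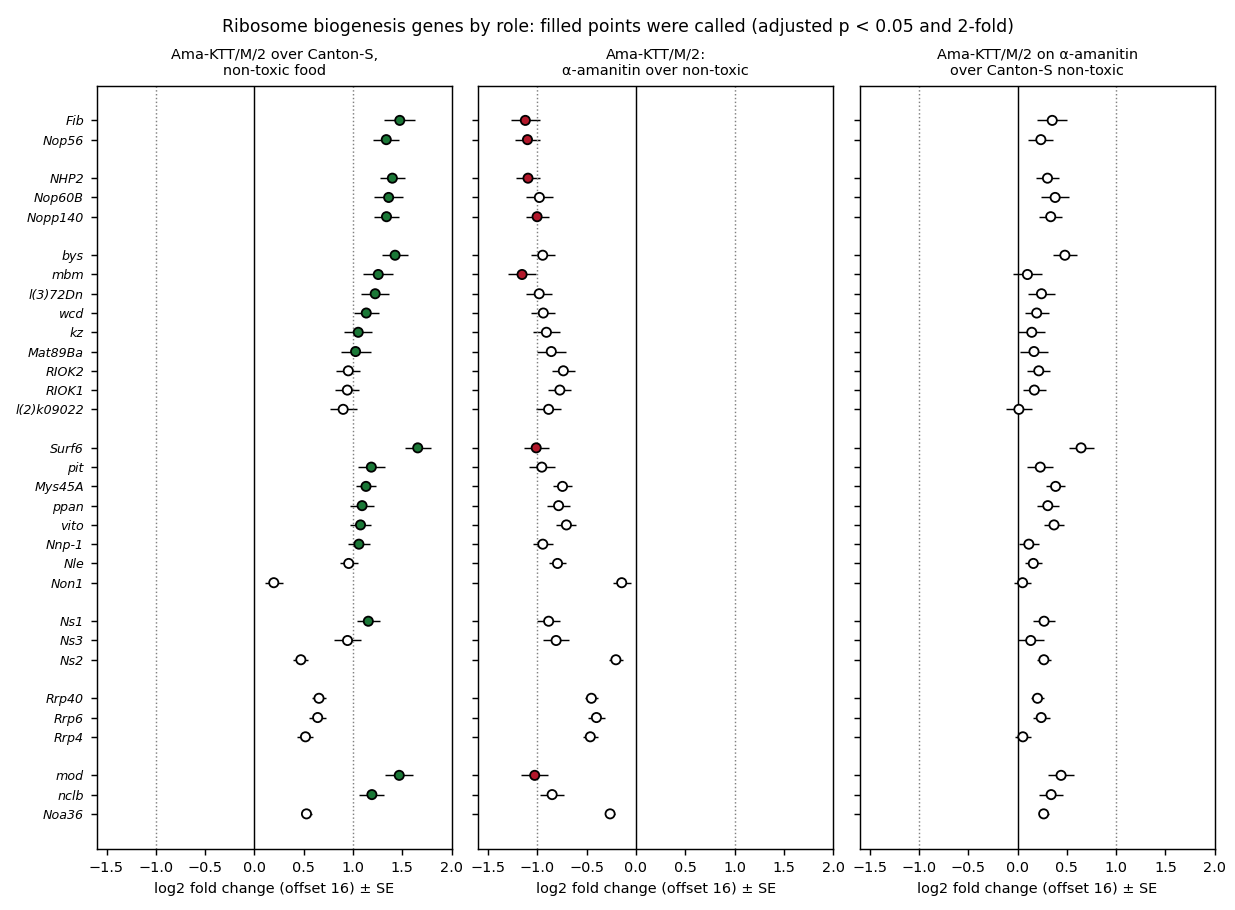
Log2 fold changes (points) with standard errors (lines) of the 31 measured genes in the 3 comparisons, grouped from top to bottom as box C/D snoRNP, box H/ACA snoRNP, small subunit, large subunit, nucleostemin-family GTPases, RNA exosome and other nucleolar genes. Filled points were called, 20 between the stocks and 7 on toxin, and the dotted lines mark 2-fold; the 3 exosome genes, *Non1*, *Ns2* and *Noa36* lie closest to 0 in the first 2 panels.

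The box C/D snoRNP guides the methylation of ribosomal RNA, and *Fib* encodes fibrillarin, its methyltransferase. *Fib* read 576, 479, 713, 853 and 525 in Canton-S replicates 1 to 5 and 2261, 1898, 1797, 1407 and 1461 in the untreated Ama-KTT/M/2 pools. On α-amanitin its lowest, median and highest pools were 613, 830 and 903. All untreated Ama-KTT/M/2 pools were thus above all others, and the toxin pools overlapped the range of Canton-S. *Fib* was 2.78-fold higher between the stocks (log2 1.47 ± 0.16, SE, adjusted p = 1.19e-06, limma) and 2.18-fold lower on toxin (adjusted p = 3.87e-05, limma). *Nop56*, a core scaffold protein of the same particle, read 1027, 902, 1231, 1426 and 1014 in Canton-S, 3433, 3018, 2886, 2456 and 2413 in Ama-KTT/M/2, and 995, 1345 and 1519 (lowest, median and highest) on toxin. It had the same arrangement, 2.53-fold higher between the stocks (adjusted p = 5.8e-07, limma) and 2.14-fold lower on toxin (adjusted p = 1.08e-05, limma). Both measured members of this class were called in both comparisons.

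The box H/ACA snoRNP carries out pseudouridylation. *NHP2*, one of its core proteins, read 691, 645, 849, 981 and 778 in Canton-S, 2539, 2163, 2155, 1851 and 1792 in Ama-KTT/M/2, and 747, 978 and 1109 on toxin (lowest, median and highest). *Nopp140*, a nucleolar phosphoprotein that acts as a chaperone of snoRNPs, read 800, 617, 674, 941 and 638 in Canton-S, 2400, 1785, 1840, 1604 and 1755 in Ama-KTT/M/2, and 751, 948 and 1003 on toxin. In both genes the lowest untreated Ama-KTT/M/2 pool was well above the highest pool of the other groups. *NHP2* was 2.64-fold and *Nopp140* 2.53-fold higher between the stocks, and on toxin they were 2.14-fold and 2.00-fold lower. The *Nopp140* call on toxin lay at the 2-fold limit and was lost in 5 of the alternatives. *Nop60B*, the dyskerin homologue and the pseudouridine synthase of the particle, was 2.57-fold higher between the stocks (mean intensities 754 and 1936) and 1.97-fold lower on toxin (975). Its dimmer probe set gave means of 374 in Canton-S, 581 in Ama-KTT/M/2 and 264 on toxin, which is a log2 fold change of 0.62 between the stocks and -1.09 on toxin. The 2 probe sets disagreed in sign between the toxin group and Canton-S, at 0.38 for the brighter (adjusted p = 0.0492, limma) and -0.46 for the dimmer (adjusted p = 0.0148, limma).

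The 9 small subunit factors were all above Canton-S in untreated Ama-KTT/M/2 at an adjusted p under 0.05, and 6 of them were called (median log2 fold change 1.05). *bys*, the gene of bystin, which acts late in small subunit maturation, had the largest difference of the class. It read 188, 173, 220, 279 and 192 in Canton-S, 710, 590, 590, 509 and 542 in Ama-KTT/M/2, and 235, 296 and 373 on toxin (lowest, median and highest). Between the stocks it was 2.69-fold higher, and on toxin it was 1.93-fold lower while still 1.39-fold above Canton-S (adjusted p = 0.00671, limma). *l(2)k09022*, the homologue of the human processome protein HEATR1, had the smallest difference of the class, with 186, 193, 249, 306 and 188 in Canton-S, 500, 472, 429, 364 and 375 in Ama-KTT/M/2, and 179, 221 and 278 on toxin. Its means in Canton-S and on toxin were alike, 224.4 ± 52.6 (SD, n = 5 pools) and 224.3 ± 32.6 (n = 6), and it was the only member whose mean was lower on toxin than in Canton-S. The 1.87-fold difference between the stocks did not reach the 2-fold limit (log2 0.90 ± 0.14, SE, adjusted p = 4.64e-05, limma).

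The other small subunit genes lay between these. The neuroblast nucleolar protein gene *mbm* was 2.39-fold higher between the stocks and had the largest fall of any member on toxin, 2.23-fold (means 171.9, 432 and 184). *l(3)72Dn* (2.34-fold), *wcd* (2.19-fold), the helicase gene *kz* (2.07-fold) and *Mat89Ba* (2.04-fold), which act in the small subunit processome, were called between the stocks and not on toxin. The calls of *kz* and *Mat89Ba* were lost in 4 and 7 of the alternatives, for *kz* without Canton-S replicate 5 or Ama-KTT/M/2 replicate 1, and for *Mat89Ba* without Canton-S replicate 1, 2 or 5 or Ama-KTT/M/2 replicate 1 or 2. The kinase genes *RIOK1* and *RIOK2*, which act late in the cytoplasm, were 1.92-fold and 1.93-fold higher and were not called.

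The 8 measured large subunit factors held both the largest and the smallest difference of all members. *Surf6*, a nucleolar protein needed for large subunit assembly, read 113, 83.7, 120, 150 and 93.1 in Canton-S, 452, 390, 385, 343 and 345 in Ama-KTT/M/2, and 150, 181 and 229 on toxin (lowest, median and highest). It was 3.15-fold higher between the stocks (log2 1.66 ± 0.13, SE, adjusted p = 4.97e-08, limma) and 2.02-fold lower on toxin. It was 1 of 2 members in which every toxin pool lay above every Canton-S pool, in this gene by a narrow margin (149.6 in the highest Canton-S pool and 150.01 in the lowest toxin pool). *Non1*, which encodes a nucleolar GTPase, read 930, 864, 833, 852 and 820 in Canton-S, 1197, 1033, 1046, 848 and 851 in Ama-KTT/M/2, and 766, 907 and 1024 on toxin. The 3 groups overlapped, and the difference between the stocks was 1.15-fold (log2 0.20 ± 0.09, SE, adjusted p = 0.104, limma). On toxin its log2 fold change was -0.14 ± 0.09 (SE, adjusted p = 0.233, limma).

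The remaining 6 large subunit genes were between 1.94-fold and 2.27-fold higher in untreated Ama-KTT/M/2. The helicase gene *pit* was 2.27-fold, *Mys45A* 2.19-fold, *ppan* 2.13-fold, *vito* 2.11-fold and *Nnp-1* 2.08-fold higher, and all 5 were called. *Nle*, which acts with the AAA-type ATPase of late large subunit maturation, was 1.94-fold higher and was not called, although its pools did not overlap (136 to 180 in Canton-S, 261 to 357 in Ama-KTT/M/2). On toxin the 6 genes were 1.63-fold (*vito*) to 1.94-fold (*pit*) lower, and none of them was called. The stock calls of *ppan* and *vito* were lost with an added constant of 64 and after a further quantile normalization, and that of *Nnp-1* after the latter and without Ama-KTT/M/2 replicate 1.

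The nucleostemin-family GTPases divided in size. *Ns1*, nucleostemin itself, read 338, 335, 372, 473 and 330 in Canton-S, 996, 824, 821, 761 and 791 in Ama-KTT/M/2, and 333, 459 and 550 on toxin (lowest, median and highest). It was 2.23-fold higher between the stocks and 1.85-fold lower on toxin. *Ns2* read 102, 89.3, 94.1, 93.9 and 98.2 in Canton-S, 142, 161, 143, 120 and 128 in Ama-KTT/M/2, and 101, 117 and 132 on toxin. Its difference between the stocks was 1.39-fold (adjusted p = 7.64e-05, limma), and its toxin pools overlapped both other groups. On toxin *Ns2* was 1.15-fold lower than without it (adjusted p = 0.0363, limma) and above Canton-S by 0.27 on the log2 scale (adjusted p = 0.00891, limma). *Ns3*, which acts on the cytoplasmic large subunit, was 1.92-fold higher between the stocks and 1.75-fold lower on toxin.

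The RNA exosome trims the ends of ribosomal RNA precursors and also degrades many other nuclear and cytoplasmic RNAs. Its 3 member genes were above Canton-S in untreated Ama-KTT/M/2 at an adjusted p under 0.05, and none reached 2-fold (median log2 fold change 0.64). *Rrp40*, a cap subunit, read 198, 197, 181, 218 and 197 in Canton-S, 330, 334, 329, 308 and 304 in Ama-KTT/M/2, and 186, 235 and 250 on toxin (lowest, median and highest). *Rrp4*, another cap subunit, read 174, 152, 147, 178 and 137 in Canton-S, 254, 244, 243, 218 and 201 in Ama-KTT/M/2, and 141, 169 and 176 on toxin. The stock differences of 1.57-fold and 1.43-fold were small, but in neither gene did the pools of the stocks overlap. The nuclear exonuclease gene *Rrp6* was 1.56-fold higher. On toxin the 3 genes were 1.32-fold to 1.38-fold lower. The 8 other exosome and cofactor genes outside the list had a median of 0.77 between the stocks and -0.61 on toxin. All 8 passed the adjusted p in both, against 28.7% of all genes higher between the stocks and 19.6% lower on toxin. Only *Csl4* was called between the stocks (2.06-fold). *Ski6* followed at 1.99-fold, while *Rrp42* (1.52-fold) and the catalytic subunit gene *Dis3* (1.53-fold) were at the low end.

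The last class held 3 nucleolar genes of other kinds. *mod*, which encodes the nucleic acid binding nucleolar protein Modulo, was among the brightest members and read 1303, 1343, 1498, 2329 and 1466 in Canton-S. In Ama-KTT/M/2 it read 5146, 4581, 4375, 3879 and 3758, and on toxin 1679, 2156 and 2446 (lowest, median and highest). It was 2.77-fold higher between the stocks and 2.04-fold lower on toxin, and Canton-S replicate 4 overlapped the toxin pools. *Noa36*, a zinc-finger nucleolar protein gene, read 585, 609, 628, 627 and 596 in Canton-S, 883, 913, 957, 853 and 824 in Ama-KTT/M/2, and 689, 739 and 770 on toxin. Its differences were small (1.44-fold higher between the stocks, and a log2 fold change of -0.26 on toxin), but its 3 groups did not overlap at all. *nclb*, whose protein associates with chromatin and the nucleolus, was 2.28-fold higher between the stocks and 1.80-fold lower on toxin.

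**Figure D2:**
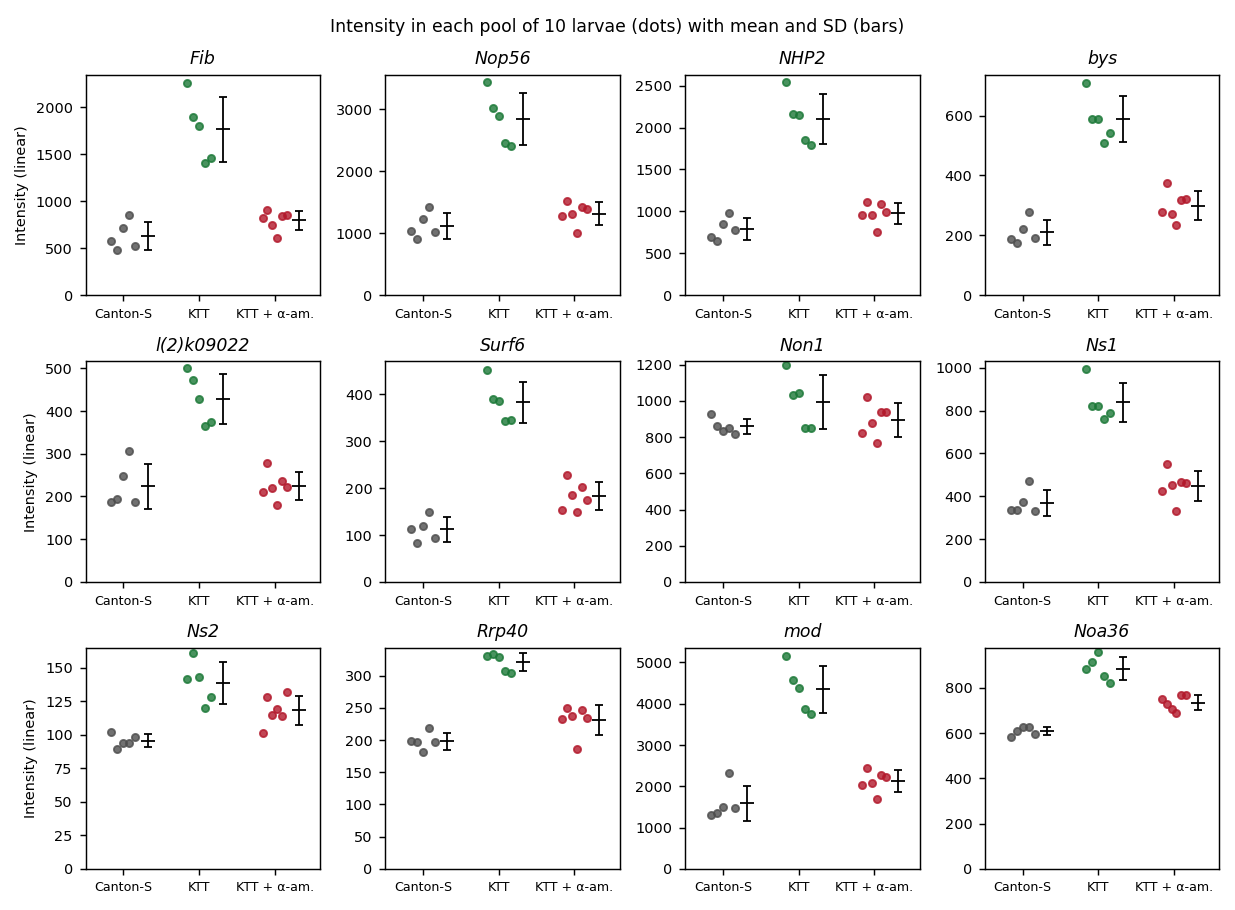
Linear intensity of 12 members in every pool (dots, in replicate order) with the group mean and SD (bars) for Canton-S, untreated Ama-KTT/M/2 (KTT) and toxin-fed Ama-KTT/M/2 (KTT + α-am.). *Fib*, *Surf6* and *mod* stand apart in the middle group, *Non1* overlaps in all 3 groups, and *Noa36* forms 3 separate groups of pools.

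On α-amanitin the biogenesis genes were lower than in the untreated larvae of the same stock. Of the 31 members, 7 were called lower, against 1.52% of all genes, none was called higher, against 2.31%, and 24 were not called. The 7 were *Fib*, *Nop56*, *NHP2*, *Nopp140*, *mbm*, *Surf6* and *mod*. With the adjusted p alone, 30 members were lower, against 19.6% of all genes, again all but *Non1*, and no log2 fold change was positive. In 29 members the pools of the 2 groups did not overlap, against 14.3% of all genes, the exceptions being *Non1* and *Ns2*. The median log2 fold change was -0.89, beside 0.02 over all genes. Only the calls of *Fib*, *Nop56* and *NHP2* held under every alternative. The count of calls rested on few pools, since it was 4 without Ama-KTT/M/2 replicate 1 and 4 without toxin replicate 4, but 11 without toxin replicate 2.

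Between the toxin-fed Ama-KTT/M/2 larvae and Canton-S, the biogenesis genes differed little. None of the 31 members was called higher or lower with limma, against 1.80% and 1.97% of all genes, and none was called with the rank product. All 31 log2 fold changes were positive, with a median of 0.24 beside 0.07 over all genes. An unadjusted p under 0.05 (limma) was reached by 16 members. The share of all genes at that threshold is not given here, so this count is not a result about the members. At an adjusted p under 0.05, 12 members were higher, against 22.8% of all genes: *Nop60B* (brighter probe set only), *Nopp140*, *bys*, *Surf6*, *Mys45A*, *vito*, *Ns2*, *Rrp40*, *Rrp6*, *mod*, *nclb* and *Noa36*. That count depended on the setting. It was 5 with the replicate number as a block (17.3% of all genes were higher there) and 6 after a further quantile normalization (17.1%). With the rank product, whose p-values are too small, it was 6 (19.0%), and without toxin replicate 2 it was 7 (22.2%). In these 4 settings the members' share was thus near that of all genes. The count was 16 without Canton-S replicate 4 (23.9%) and 17 without toxin replicate 4 (23.2%). *Surf6* differed most (1.56-fold, log2 0.64 ± 0.13, SE, adjusted p = 0.000921, limma), and *Noa36* differed by 0.27 on the log2 scale (adjusted p = 0.000603, limma). In these 2 genes all toxin pools were above all Canton-S pools, against 13.3% of all genes. Without Canton-S replicate 4, an alternative looked at after its values were known, this held for 7 members. The share of all genes there is not given here, and leaving out a pool can only keep or raise such a count. The mean intensities ran from Canton-S over the toxin group to untreated Ama-KTT/M/2 in 30 members and differed in order only in *l(2)k09022*.

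Within each group most members were highest, and most were lowest, in the same pool. Averaged over the 31 genes, the mean log2(intensity + 16) was 7.91 to 8.41 in Canton-S (mean 8.10 ± 0.20, SD, n = 5 pools), 8.95 to 9.40 in Ama-KTT/M/2 (9.16 ± 0.18, n = 5) and 8.06 to 8.55 on toxin (8.35 ± 0.17, n = 6). The highest pool was 1.41-fold above the lowest in Canton-S, 1.36-fold in Ama-KTT/M/2 and 1.41-fold on toxin. Canton-S replicate 4 was the highest pool of its group for 28 of the 31 members, Ama-KTT/M/2 replicate 1 for 28, and toxin replicate 2 for 29. Toxin replicate 4 was the lowest pool of its group for 30 members. The shares of all genes highest or lowest in these pools are not given here. Canton-S replicate 4 also had the highest array median of its group (69.9). The array medians of Ama-KTT/M/2 replicate 1 (66.0) and toxin replicate 2 (66.5) were not the highest of theirs. The median coefficient of variation over the members was 17.3% in Canton-S, 14.2% in Ama-KTT/M/2 and 12.9% on toxin, and *Noa36* had the lowest value in Canton-S, 3.07%.

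**Figure D3:**
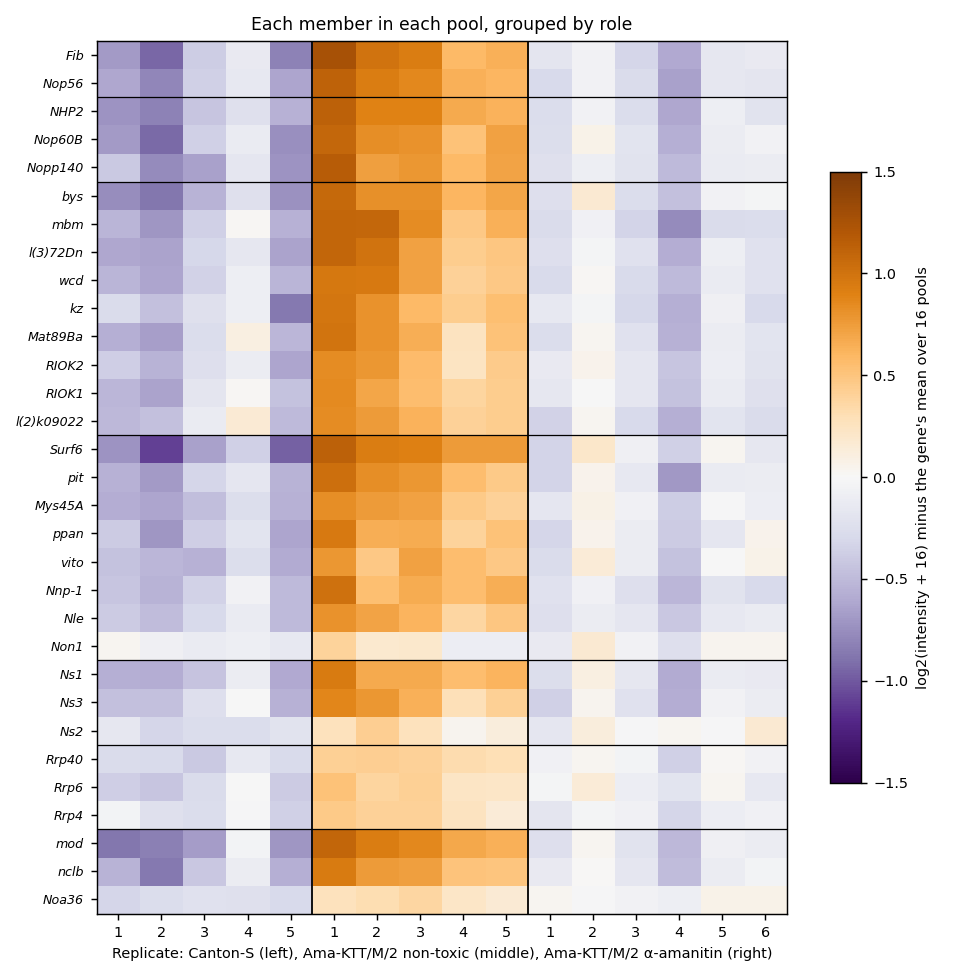
Log2(intensity + 16) of each of the 31 members in each of the 16 pools, minus the gene's mean over all pools (orange higher, purple lower), with columns grouped by stock and food and rows by role class in the same order as the fold change plot. The 5 untreated Ama-KTT/M/2 pools stand out over nearly all rows, and *Non1*, *Ns2* and *Noa36* are the palest rows.

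In Canton-S replicate 4 and toxin replicates 2 and 4, the larval age markers (glue and fat body storage genes) ran opposite to the biogenesis genes. Canton-S replicate 4, highest in the members (8.41), had the lowest *Sgs* and *Eig71Ee* sum of Canton-S (1765). Toxin replicate 2, highest in the members (8.55), was the toxin pool with almost no glue signal (11.7), and toxin replicate 4, lowest in the members (8.06), had the highest (56653). In untreated Ama-KTT/M/2 all glue sums were near 0, and replicate 1, highest in the members (9.40), was at 6.65 (the others 6.05 to 14.5). The sum of the fat body storage genes was at the extreme of its group in all 4 of these pools, but in Ama-KTT/M/2 replicate 1 from dim values. It was lowest in Ama-KTT/M/2 replicate 1 (11.9, the others 37.8 to 1221), Canton-S replicate 4 (12727) and toxin replicate 2 (2795), and highest in toxin replicate 4 (31575). All 3 storage genes were under 16 in Ama-KTT/M/2 replicate 1, and 1 or 2 of them in each other untreated pool. Like the glue sums there, such dim values do not rank the untreated pools reliably. Other pools did not run opposite in this way. Canton-S replicate 2, lowest of its group in the members (7.91), had the lowest *Sgs* and *Eig71Ee* sum after replicate 4 (11746). Ama-KTT/M/2 replicate 4, lowest of its group in the members (8.95), also had the lowest such sum there (6.05). Toxin replicate 2 had glue levels in the range of the untreated Ama-KTT/M/2 pools, but its fat body storage sum was above all of them. In this pool 29 of the 31 members were below every untreated pool and 25 were above every Canton-S pool. The shares of all genes for this pool are not given here, so these counts have no background to be read against. This is a single pool and allows no test. Canton-S replicate 4 was below every untreated Ama-KTT/M/2 pool in 30 members, again without a share of all genes beside it. Canton-S replicate 4, Ama-KTT/M/2 replicate 5 and toxin replicate 2 were also left out together, chosen after their glue or fat body levels were seen. Then 25 members were called higher between the stocks and 12 lower on toxin, and none was called between the toxin group and Canton-S. The shares of all genes called there are not given here, so the rise in calls is not a result about the members. With the adjusted p alone, 30 members were higher between the stocks, against 27.7% of all genes.

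**Figure D4:**
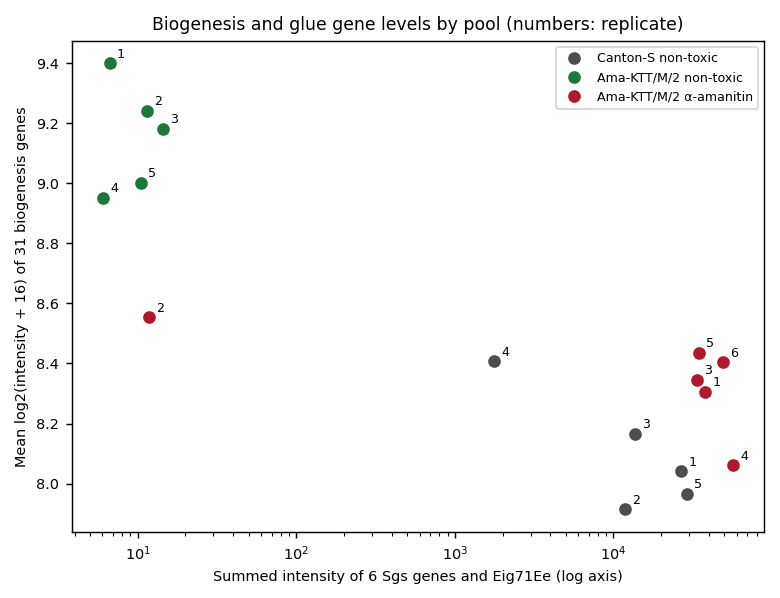
Mean log2(intensity + 16) of the 31 biogenesis genes in each pool against the summed intensity of 7 glue genes (6 *Sgs* genes and *Eig71Ee*, log axis), with replicate numbers beside the points. The 5 untreated Ama-KTT/M/2 pools lie at the upper left (8.95 to 9.40), toxin replicate 2 lies below them at 8.55 with a similar glue sum, and the other toxin and Canton-S pools lie to the right.

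The differences were found on every chromosome arm that carried members, as placed by the RefSeq gene table of Release 6. The median log2 fold change between the stocks was 0.96 for 5 genes on 2L, 1.13 for 8 on 2R, 1.22 for 5 on 3L, 1.12 for 10 on 3R and 1.05 for 3 (*kz*, *bys* and *Ns3*) on the X chromosome, which was not made isogenic. The median on toxin ran from -0.98 on 3L to -0.80 on 2R. By brightness in Canton-S, the 11 dimmest members had a median of 1.03 between the stocks, the middle 10 had 1.10 and the brightest 10 had 1.34.

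Genes of neighbouring steps were compared with the members. RNA polymerase I makes the ribosomal RNA precursor itself. Of the 9 measured genes for its subunits and factors, 5 were called higher in Ama-KTT/M/2 (median 1.02), against 4.26% of all genes. With the adjusted p alone 8 were higher, against 28.7%. *Polr1F* and *Polr1B*, both subunits, were 2.30-fold and 2.29-fold higher. The lowest values were those of *TAF1B*, a promoter factor (1.25-fold, adjusted p = 0.0159, limma), and *udd*, which acts with it (1.07-fold, adjusted p = 0.336, limma). On toxin 7 of the 9 were lower at an adjusted p under 0.05, against 19.6% of all genes. None was called lower, against 1.52% (median -0.81). Of 8 further ribosome assembly genes, out of 15 listed, 4 were called higher between the stocks, against 4.26% of all genes. *La* (2.19-fold) and *Non3* (2.11-fold) were the highest. *Nop17l* differed by 1.09-fold (adjusted p = 0.347, limma), and *Non2* was 1.16-fold lower (adjusted p = 0.0166, limma) and was higher on toxin (1.26-fold, adjusted p = 0.00113, limma).

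The growth regulators upstream of ribosome synthesis showed no call in any comparison with limma, and *Myc*, *Rheb* and *Thor* had no value here. Over all genes 4.26% were called higher and 2.85% lower between the stocks, so no call among 7 genes is not a result about them. At an adjusted p under 0.05, 4 of the 7 were higher between the stocks, against 28.7% of all genes. By the same limit 1 was lower (median 0.24). *S6k*, the kinase downstream of TOR, was 1.26-fold and *mTor* 1.22-fold higher. *Mnt*, a repressor that competes with Myc for Max, was 1.26-fold lower between the stocks (adjusted p = 0.016, limma) and 1.38-fold higher on toxin (adjusted p = 0.00184, limma). *raptor* was dim (24.6 to 29.9) and passed no test (adjusted p = 0.19 between the stocks, limma).

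The structural proteins of the cytosolic ribosome had smaller differences than most members. Those of the mitochondrial ribosome had a median near that of the members between the stocks and a smaller one on toxin. None of 32 cytosolic ribosomal protein genes was called higher between the stocks, against 4.26% of all genes, and none was called lower. At an adjusted p under 0.05, 26 were higher, against 28.7% of all genes (median log2 fold change 0.23). The largest differences were those of *RpS19b* (1.92-fold) and *RpS5b* (1.38-fold), dim copies next to the abundant genes, and the smallest were those of *RpL27* and *RpS28b* (both 1.07-fold). On toxin 8 of the 32 were lower at an adjusted p under 0.05, a share near the 19.6% of all genes, with a median of -0.11. The mean intensities of *RpL27* and *RpS28b* in Canton-S were 7349 and 10290, above the highest group mean of a member (*mod*, 4348 in untreated Ama-KTT/M/2). Whether fold changes are smaller at such intensities was not tested. Of 69 mitochondrial ribosomal protein genes, 28 were called higher between the stocks, against 4.26% of all genes. Their median was 0.97, with 0.16 for *mRpS5* and 0.39 for *mRpL39* as the lowest. The highest were 1.28 for *mRpL12* and 1.30 for *mRpL1*. On toxin none was called, while 68 passed the adjusted p as lower, against 19.6% of all genes, with a median of -0.59. Between the toxin group and Canton-S, 49 of the 69 were higher at an adjusted p under 0.05 (median 0.37), beside 12 of the 31 members (median 0.24) and 22.8% of all genes. These medians are set side by side as values, and no difference between gene groups was tested.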

How the data were processed

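RNA of 16 pools of 10 larvae was hybridized to 16 arrays. Per the labels and methods, the authors summarised the probes to linear intensities with the PLIER algorithm of Affymetrix Power Tools after quantile normalization and with mismatch probes subtracted, and processing notes name Affymetrix Expression Console 1.2. The deposited intensities have no floor, the quantile step gives every array nearly the same distribution, and a count of reads does not exist, so that the number of arrays limits the precision. The genome build was not given in the sources used here.

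Groups came from the sample labels. Of 18952 probe sets, 183 controls were left out and 18769 were tested. The platform annotation gave 13647 of these 1 gene, 402 several and 4720 none, and each gene was read from its brightest probe set. All 31 measured members were matched by gene ID to the RefSeq table of Release 6, which was used only for chromosome arms. A constant of 16 was added before log2, and the 3 groups were fitted together in limma 3.58.1 (R 4.3.3), with Benjamini-Hochberg adjustment within each comparison. Genes were called at an adjusted p under 0.05 and 2-fold. The fit was tested on simulated data. No 2 arrays were identical. The members and lists were chosen with earlier results of these data known.

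Every measured member is named with a value. Values of each pool (for the 6 toxin pools the lowest, median and highest) are given for *Fib*, for the members with the largest and smallest stock difference in each class, and for members that missed the adjusted p, and from each other gene list the 2 highest and 2 lowest genes by stock difference are named, while the age and tissue markers are given as sums or in full. Cytosolic ribosomal protein genes were taken by symbol (RpL, RpS or RpLP with a number), which took 32 genes and left out some with longer suffixes. Only genes with a probe set of their own could be taken, so the 32 are a part of the family.

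Replicate numbers were not used to pair the samples, because the methods state that the larvae of a pool were picked at random over all tubes. Same-numbered pools of different groups had correlated deviations between -0.52 and 0.39 over 15 pairs, and differently numbered pools between -0.64 and 0.48. Such wide ranges cannot exclude a pairing. Alternatives were added constants of 1 and 64, a filter on a mean of 64, a further quantile normalization, the rank product, the mean of a gene's probe sets, fits of 2 groups, the replicate block and leaving out each pool. A planned search for promoter motifs was not run because no sequences were used here.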

Additional observations from a re-analysis of the deposited data

Results flagged for a closer look

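Of 93 sets of pools (31 genes in 3 groups), 4 had a pool that lay far from the others of its group by Dixon's test, and chance flags about 1 in 20 such sets. *Nnp-1* was at 1603 in Ama-KTT/M/2 replicate 1 without toxin (the others 1148 to 1246). *Ns1* was at 996 in the same pool (the others 761 to 824). *mod* was at 2329 in Canton-S replicate 4 (the others 1303 to 1498). *Rrp40* was at 186 in toxin replicate 4 (the others 233 to 250). Ama-KTT/M/2 replicate 1 and Canton-S replicate 4 were the highest pools of their groups for 28 of the 31 members each, and toxin replicate 4 was the lowest for 30. The shares of all genes for these counts are not given here.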

How the results depend on the processing

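The 20 members called higher between the stocks became 14 to 25 under the alternatives (17 to 25 when 1 pool was left out, with 14 at an added constant of 64), and the median log2 fold change stayed between 0.94 and 1.19. The 7 called lower on toxin became 4 with an added constant of 64 and 4 to 11 when 1 pool was left out. They became 12 when 3 pools were left out together (Canton-S replicate 4, Ama-KTT/M/2 replicate 5 without toxin and toxin replicate 2), an alternative chosen after seeing the data. The shares of all genes called under these alternatives are not given here. With the replicate block, a paired fit, 20 were called higher between the stocks and 8 lower on toxin, and the medians were 1.09, -0.89 and 0.24. No call was made between toxin-fed Ama-KTT/M/2 and Canton-S under any alternative, and no member was called lower between the stocks or higher on toxin. In that comparison 4 genes changed sign, *l(2)k09022*, *Non1* and *Rrp4* from values near 0 and *Nop60B* from 0.38. A further quantile normalization gave log2 fold changes of -0.0661 for *l(2)k09022*, -0.0158 for *Non1* and -0.0343 for *Rrp4*, and the mean over probe sets gave -0.0411 for *Nop60B*. For *l(2)k09022* the rank product gave -0.00107, and leaving out 1 pool gave values from -0.0470 to 0.125. The causes were not tested. Over single members and alternatives, 33 results lost and 45 gained a call. No scaling moved the median of all genes by over 0.1. Signal over background limits the dim members (*kz*, *Mat89Ba*, *Ns2*), where the added constant lowers the fold change.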
